A study of Mus musculus with 6 samples.

Results

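The transcription factors that steer effector regulatory T cells and the T helper lineages were followed through 6 RNA-seq libraries of mouse splenic Treg cells. They are Prdm1 (which encodes Blimp-1), Irf4, Batf, Maf, Tbx21 (T-bet), Gata3, Rora, Ahr and Id2, taken by symbol from a table of 46078 gene identifiers, and each of the 9 matched 1 row. Cells sorted as CD4+ and eGFP+ came from the spleens of C57BL/6 mice aged 6 to 8 weeks. All mice carried the DEREG transgene, a reporter that marks Foxp3-expressing cells with eGFP. The comparison has 3 libraries labelled WT and 3 labelled MAZR-cKO, with the genotype MAZRf/f and CD4-cre, a Cre that acts from the thymus onward in CD4 and CD8 T cells alike. Whether a library held 1 animal or a pool is not given in the sources used here. The p-values here set the difference between the labels against the spread among libraries of a label, which may be technical.

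Treg cells leave their resting state under T cell receptor signals, through IRF4 and BATF, which bind DNA together with AP-1 partners. Blimp-1 and c-Maf act further along that route and are known for the control of interleukin-10. T-bet and GATA3 define the type 1 and type 2 helper lineages, ROR-alpha contributes to the type 17 lineage, and Treg cells express these factors at lower levels in matching inflammatory settings. AhR is a receptor for dietary and environmental ligands, and Id2 blocks the E proteins that hold lymphocytes in earlier states.

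The values are CPM, reads scaled to a corrected library size, from 15481565 to 28184456 recovered reads per library. Patz1, which encodes MAZR, stood at 67.6 to 74.9 CPM in WT and at 177 to 181 CPM under the MAZR-cKO label. A gene-level value covers all exons and cannot show whether the floxed part was missing, so the genotypes are given as labels. Of the 8 defining Treg genes all were expressed, with a summed level of 5851 to 6239 CPM in WT and 5622 to 6131 CPM under the MAZR-cKO label. Libraries also differed in Y-linked transcripts, 4 genes summed at 217, 164 and 276 CPM in WT 1, 2 and 3 and at 116, 0.480 and 199 CPM in MAZR-cKO 1, 2 and 3. In bulk samples fewer cells of a type and less RNA per cell cannot be told apart.

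All 9 genes are annotated as protein-coding (GENCODE M21, mm10). Prdm1 lies on chromosome 10 from 44437177 to 44528501, Irf4 on chromosome 13 from 30749226 to 30766976, and Maf on chromosome 8 from 115682942 to 115707794. Chromosome 12 holds Batf (85686669 to 85709087), Ahr (35497974 to 35535038) and Id2 (25093799 to 25097140). Tbx21 spans 97098071 to 97115331 of chromosome 11, Gata3 9857078 to 9890034 of chromosome 2 and Rora 68653786 to 69388246 of chromosome 9. Annotated genes that share exon bases with Maf, Gata3 or Rora were at 0.0116 to 0.296 CPM on average. Gm48236, which shares 127 exon bases with Ahr on the other strand, was not analysed here.

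Promoter sequences from RefSeq (GRCm38.p6, 250 bases before to 50 after the start that RefSeq gives) were matched for 7 members, with none for Maf and Ahr. For Prdm1 that start, base 44458748, is the start of the protein-coding transcript Prdm1-201 and lies 69753 bases inside the gene span given above, whose upstream end belongs to a retained-intron transcript. The Gata3 and Id2 windows also lie at coding transcript starts inside the span, 11434 and 1048 bases from its end. Those of Prdm1, the most even of the effector factors across libraries, and of Irf4, an uneven one, are shown because they hold the only matches found. Capitals mark matches to GGGAGGG, the core of G-rich sites known for MAZ, a relative of MAZR, to TGANTCA, the AP-1 element that BATF dimers bind, and to TATAAA. The windows are chr10:44458699-44458998 (minus strand) and chr13:30748983-30749282 (plus strand), written 5′ to 3′.
Prdm1: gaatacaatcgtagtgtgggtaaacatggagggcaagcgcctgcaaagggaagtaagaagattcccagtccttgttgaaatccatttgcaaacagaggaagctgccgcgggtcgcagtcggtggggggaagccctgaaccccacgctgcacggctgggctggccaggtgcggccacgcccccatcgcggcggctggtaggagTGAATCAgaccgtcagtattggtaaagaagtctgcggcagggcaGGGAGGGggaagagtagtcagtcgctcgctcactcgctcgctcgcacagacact
Irf4: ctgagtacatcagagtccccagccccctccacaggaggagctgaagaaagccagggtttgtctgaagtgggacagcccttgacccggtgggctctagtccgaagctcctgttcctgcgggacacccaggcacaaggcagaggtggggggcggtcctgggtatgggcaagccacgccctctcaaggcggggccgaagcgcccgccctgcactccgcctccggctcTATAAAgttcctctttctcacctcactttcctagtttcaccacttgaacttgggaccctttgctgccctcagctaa

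Prdm1 held GGGAGGG and TGANTCA, 1 match each, and Irf4 held 1 TATAAA. Searched on both strands, the 3 motifs occurred in 22.0%, 7.8% and 13.6% of 32851 promoters of the same length, and each in 1 of the 7 members. Such a match is a description of letters and not a site, and its absence elsewhere concerns only these windows.

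None of the 9 factors was called between the labels. limma on log2(CPM + 0.5), adjusted by Benjamini-Hochberg over all 12040 tested genes, called 0 of 9 at an adjusted p under 0.05, beside 0.0415% of all genes. All 9 passed the filter of 1 CPM in at least 3 libraries. At an unadjusted p under 0.05, Ahr alone was lower, 1 of 9 beside 5.25% of all genes. edgeR and DESeq2 on the recovered reads called 0 as well, beside 6 and 34 of all 12040 genes. Each had 1 member under that unadjusted limit, beside 630 and 429 of all genes. A block for the replicate number left the limma count at 0 of 9, beside 0.382% of all genes, and 2 members, Ahr and Tbx21, were under the unadjusted limit, beside 10.6%. The median log2 fold change of the members was -0.05 (-0.08 without MAZR-cKO 2), and -0.01 over all genes.

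**Figure D1:**
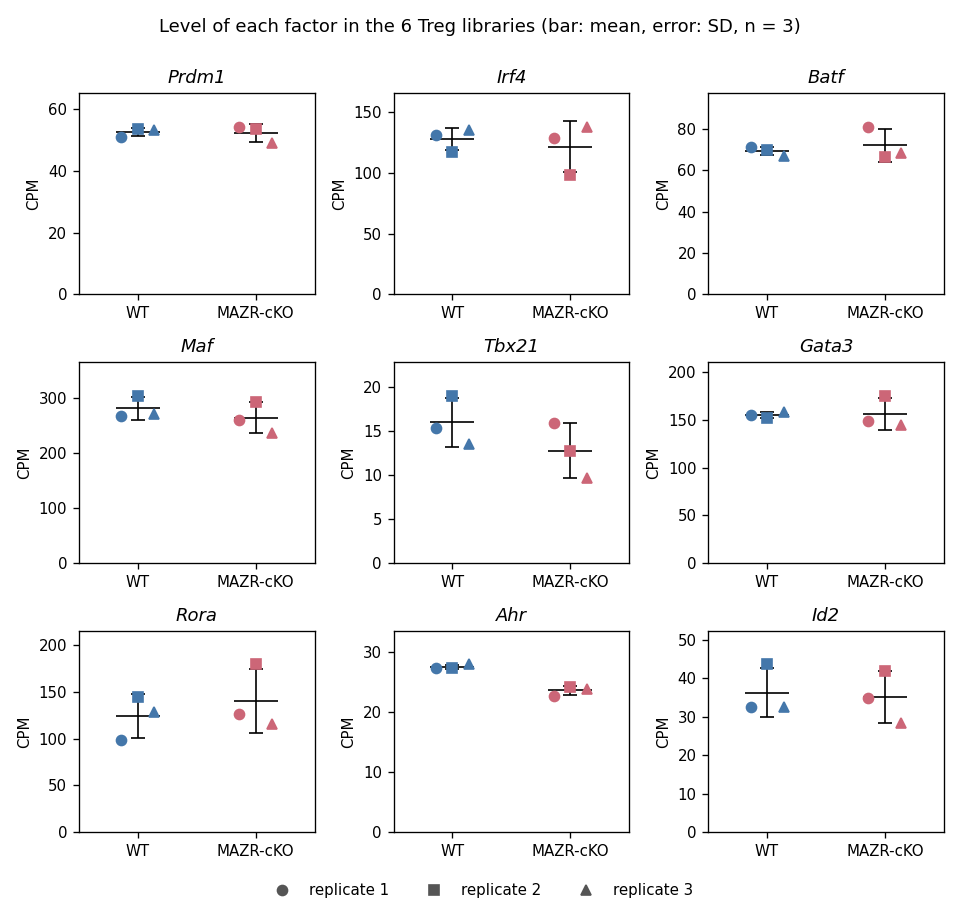
Level in CPM (vertical axes, from 0) of each factor in the 3 WT (blue) and 3 MAZR-cKO-labelled (red) libraries, with marker shapes for the replicate number, horizontal bars for means and error bars for SD (n = 3). The groups overlap for every gene but Ahr, whose WT libraries lie at 27.3 to 27.9 CPM and the others at 22.7 to 24.1 CPM.

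Among the effector regulators, Prdm1 was level across all 6 libraries. It encodes Blimp-1, a zinc finger repressor that marks effector Treg cells and plasma cells. Its level was 51.1, 53.6 and 53.4 CPM in WT 1, 2 and 3 and 54.4, 53.6 and 49.1 CPM in MAZR-cKO 1, 2 and 3. The groups overlap, and the highest library exceeded the lowest by a factor of 1.11. The log2 fold change was -0.01 (SE 0.06), with a 95% interval of -0.14 to 0.12 (limma adjusted p = 0.992). Its sign turned with the method: edgeR gave 0.0016 and DESeq2 0.00024.

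Irf4, the factor induced in proportion to T cell receptor signal strength, was less even. It stood at 131, 118 and 135 CPM in WT 1, 2 and 3 and at 129, 98.6 and 138 CPM in MAZR-cKO 1, 2 and 3. Both replicate 2 libraries were the lowest of their group, and MAZR-cKO 2 was the lowest of all. The log2 fold change was -0.08 (SE 0.11, interval -0.34 to 0.18, limma adjusted p = 0.933). With the block the SE was 0.06 and the limma adjusted p 0.641. Without MAZR-cKO 2 it was 0.06, the opposite sign.

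Batf, a small AP-1 family protein that partners with JUN proteins and IRF4, had the highest level per length of the 9. Its values were 71.1, 69.8 and 67.0 CPM in WT 1, 2 and 3 and 81.2, 66.7 and 68.3 CPM in MAZR-cKO 1, 2 and 3. MAZR-cKO 1 lay above the other 5, which ranged from 66.7 to 71.1 CPM. The log2 fold change was 0.05 (SE 0.08, interval -0.12 to 0.22, limma adjusted p = 0.938), and -0.04 without MAZR-cKO 1.

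Maf, which encodes the large bZIP factor c-Maf, a known activator of Il10, was the most abundant by CPM. It was at 267, 304 and 270 CPM in WT 1, 2 and 3 and at 260, 293 and 237 CPM in MAZR-cKO 1, 2 and 3. Replicate 2 was the highest in both groups, and in each of the 3 pairs the MAZR-cKO-labelled library was the lower one, by 0.04, 0.05 and 0.19 on the log2 scale. The groups overlap. The log2 fold change was -0.09 (SE 0.08, interval -0.28 to 0.09, limma adjusted p = 0.926, and 0.50 with the block). It was -0.02 without MAZR-cKO 3, -0.03 without WT 2 and -0.17 without MAZR-cKO 2.

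Tbx21 had the lowest CPM and the lowest ratio between the labels among the lineage factors. T-bet, its product, directs the type 1 programme and switches on Cxcr3 in Treg cells. The levels were 15.3, 19.0 and 13.5 CPM in WT 1, 2 and 3 and 15.9, 12.7 and 9.64 CPM in MAZR-cKO 1, 2 and 3, from 238 to 346 reads each. WT 2 was the highest and MAZR-cKO 3 the lowest, 1.97-fold apart, while MAZR-cKO 1 exceeded WT 1 and WT 3. Means were 15.9 ± 2.8 and 12.7 ± 3.1 CPM (SD, n = 3), a ratio of 0.800. Between the labels, log2 values differed by -0.33 (SE 0.18, interval -0.74 to 0.09; limma adjusted p = 0.914, and 0.364 with the block). Without MAZR-cKO 3 the value was -0.15, without WT 2 it was -0.20, and without MAZR-cKO 1 it was -0.49. T-bet is also abundant in natural killer cells, whose 8 markers summed to 47.6, 55.5 and 37.4 CPM in WT 1, 2 and 3 and to 69.8, 50.2 and 35.8 CPM in MAZR-cKO 1, 2 and 3. None of those markers was at 0, and their part in the Tbx21 values was not tested.

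Gata3, the type 2 lineage factor, which Treg cells also use to keep Foxp3 expression in inflamed tissue, stood almost equal under both labels. The values were 155, 152 and 159 CPM in WT 1, 2 and 3 and 149, 176 and 145 CPM in MAZR-cKO 1, 2 and 3. WT libraries lay within a narrow span, and those labelled MAZR-cKO fell on both sides of it. The means were 155 ± 3.3 and 157 ± 17 CPM, a log2 fold change of 0.01 (SE 0.07, interval -0.15 to 0.17, limma adjusted p = 0.996). Without MAZR-cKO 2 it was -0.08.

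Rora, an orphan nuclear receptor of the type 17 and innate lymphoid lineages, had the largest within-group SD of the 9. It was measured at 98.3, 145 and 128 CPM in WT 1, 2 and 3 and at 126, 179 and 115 CPM in MAZR-cKO 1, 2 and 3. Replicate 2 was the highest in both groups, and the range over all 6 was 1.82-fold. Log2 values differed by 0.17 (SE 0.18, interval -0.23 to 0.57; limma adjusted p = 0.926, and 0.494 with the block). It was 0.33 with an adjusted p of 0.0018 in limma with the block and without replicate 3. That fit, of replicates 1 and 2 alone, called 145 of all genes higher and 134 lower, beside 36 and 10 with the block and all libraries. Leaving out MAZR-cKO 2 gave -0.02, the opposite sign, and leaving out WT 1 gave 0.01. The size thus hung on either of these libraries, and among fits without 1 library the sign turned only without MAZR-cKO 2.

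Ahr was the only member whose groups did not overlap. Such a lower, non-overlapping pattern was found in 5.74% of all tested genes. Its product is a ligand-activated factor known for gut Treg cells and type 17 cells. The levels were 27.3, 27.3 and 27.9 CPM in WT 1, 2 and 3 and 22.7, 24.1 and 23.8 CPM in MAZR-cKO 1, 2 and 3. Each of the latter was below each WT library, with means of 27.5 ± 0.34 and 23.5 ± 0.75 CPM, a ratio of 0.857. The log2 fold change was -0.22 (SE 0.07, interval -0.37 to -0.07), with an unadjusted limma p of 0.0094 and an adjusted p of 0.874 (0.297 with the block). An exact two-sided permutation test of the CPM gave p = 0.1, the smallest that 3 against 3 allows. Any such groups without overlap give that value, so it adds nothing to the lack of overlap. Over the 21 alternatives the value ran from -0.24 to -0.19, with adjusted p-values of 0.215 to 1.00.

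Ahr rested on 365 to 687 reads per library, for which counting alone gives an SD of 0.065 on the log2 scale. The observed spread within groups, an SD of 0.034, was below that. It was lower in all 3 pairs, as was Maf, 2 of 9 members beside 19.2% of all genes.

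Id2, an inhibitor that pairs with E proteins and keeps them off DNA, was highest in the replicate 2 libraries of both labels. It was at 32.4, 43.6 and 32.6 CPM in WT 1, 2 and 3 and at 34.8, 42.0 and 28.4 CPM in MAZR-cKO 1, 2 and 3. Both replicate 2 libraries lay above the other 4. The log2 fold change was -0.05 (SE 0.15, interval -0.40 to 0.30, limma adjusted p = 0.981), and it was 0.09 without MAZR-cKO 3. With the block and all libraries the SE was 0.07 and the limma adjusted p 0.846.

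**Figure D2:**
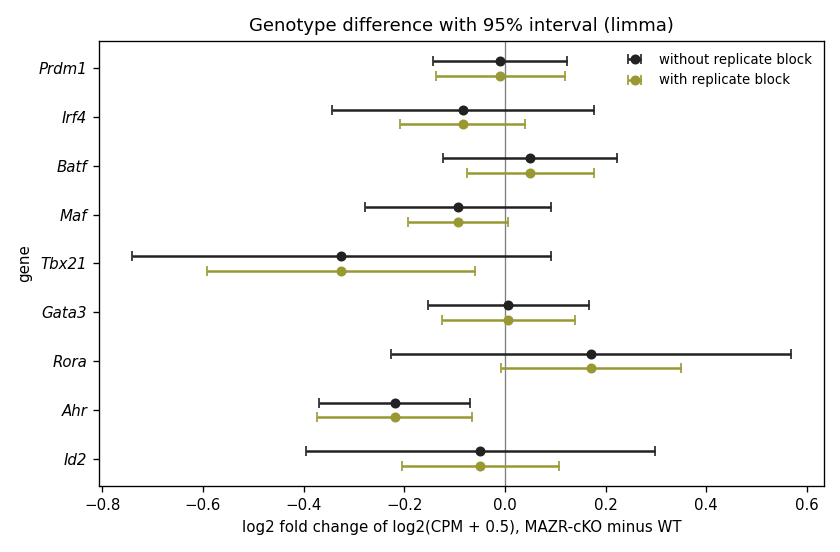
Log2 fold change of log2(CPM + 0.5), MAZR-cKO minus WT (horizontal axis), of each factor (vertical axis), as points with 95% intervals from limma without (black) and with (olive) the replicate block. Only the interval of Ahr, -0.37 to -0.07, lies off 0 without the block, and that of Tbx21 joins it with the block. Neither gene passed after adjustment over all genes.

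The members differed in how far libraries of the same label lay apart. The pooled SD within groups, on the log2 scale, was 0.31 for Rora, 0.30 for Tbx21, 0.26 for Id2 and 0.20 for Irf4. It exceeded that of 97.7%, 97.5%, 96.7% and 93.2%, in that order, of the 8825 genes with a mean of at least 10 CPM, whose median was 0.08. Counting alone gives 0.03, 0.09, 0.06 and 0.03 for the same 4 genes. Maf, Batf and Gata3 had an SD of 0.13, 0.11 and 0.11, Prdm1 0.06 and Ahr 0.03, the last 2 below the median.

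Several members had their extreme values in the replicate 2 libraries. Rora, Id2 and Maf were highest in replicate 2 under both labels, 3 of 9 members beside 16.2% of all tested genes, and Irf4 was lowest there, 1 of 9 beside 17.3%. Those counts are a description of 6 libraries, and replicate 2 was singled out after the values were seen. WT 2 and MAZR-cKO 2 were also the libraries with the lowest Y-linked sum of their group, 164 and 0.480 CPM. The part of that difference in the members' values was tested only as a covariate of the genotype fit. The Y-linked sum was lower under the MAZR-cKO label in each pair, and by far the lowest in MAZR-cKO 2. The fit thus cannot fully separate this covariate from the label. With the covariate, Irf4 turned to 0.18, Gata3 to -0.10 and Rora to -0.15, and the differences of Id2, Maf and Tbx21 grew to -0.38, -0.27 and -0.58. Their adjusted p-values in limma were 0.621, 0.370 and 0.758, and 0 members were called. Unadjusted limma p-values in that fit were under 0.05 for Maf (0.0017), Id2 (0.0055), Tbx21 (0.021), Irf4 (0.024) and Ahr (0.038). By p these ranked 55, 106, 330, 367 and 562 of 12040 genes, in that order.

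**Figure D3:**
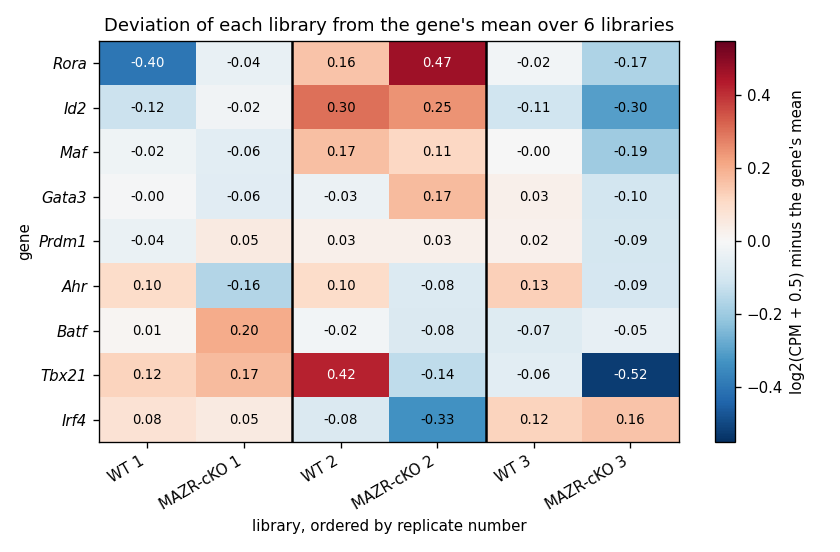
Deviation of log2(CPM + 0.5) from the gene's mean over 6 libraries (colour scale and printed values) for each factor (rows) and library (columns, paired by replicate number). Rora, Id2 and Maf are positive and Irf4 negative in both replicate 2 libraries, while Ahr is positive in the 3 WT and negative in the 3 MAZR-cKO-labelled libraries.

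Per kilobase of merged exons, a scale on which genes can be compared, the order of the levels was Batf, Gata3, Maf, Irf4, Id2, Rora, Prdm1, Tbx21 and Ahr. Means over the 6 libraries were 50.3, 39.2, 33.0 and 25.5 CPM per kilobase for Batf, Gata3, Maf and Irf4. They were 14.6, 10.1, 9.42, 5.76 and 4.14 CPM per kilobase for Id2, Rora, Prdm1, Tbx21 and Ahr. The ranges of neighbours over the libraries overlapped for Gata3 with Maf, Id2 with Rora, Rora with Prdm1, and Tbx21 with Ahr. Within each library, Gata3 was above Maf, Id2 above Rora and Tbx21 above Ahr, the last narrowly in MAZR-cKO 3 (3.875 and 3.865). Rora was below Prdm1 in WT 1 and MAZR-cKO 1 and above it in the others, so the order of Rora and Prdm1 is not settled by these libraries. Merged exons of all annotated transcripts, 13071 bases for Rora and 1406 for Batf, lower the value of genes with long unused exons.

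The genes closest in profile were sought among 8824 others with a mean of at least 10 CPM, by the root mean square difference of centred log2 values over the 6 libraries. For Ahr these were Hspa4l and Pglyrp1, which differed from it by 0.03 in both cases. For Tbx21 they were Nkg7 and Cxcr3, at 0.08 and 0.13, and for Irf4 Foxred2 and Nr4a3, at 0.03 each. Rora was closest to Mrps10 and Gna15 (0.08 each), Id2 to Tbx6 and Tanc1 (0.03 and 0.06) and Maf to Rab11fip1 and Slc45a4 (0.02 and 0.03). Batf was nearest to Fbxl19 and Asb3 (0.03 each), Gata3 to Zmym5 and Jmjd6 (0.02 and 0.03) and Prdm1 to Atxn7 and Fhod1 (0.01 each). With 6 values and this many genes, close profiles are found for any gene.

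Around the factors, 126 genes in 12 lists of partners, antagonists and targets gave 103 tested genes, of which limma called 0 in either direction. The unadjusted limit of 0.05 was passed by 2 genes that were higher and 6 that were lower, beside 5.25% of all genes. edgeR and DESeq2 called 0 of the 103 each, with 8 and 8 genes under that limit, beside 630 and 429 of all 12040 genes. With the block 0 were called, with 11 of the 103 higher and 17 lower at the unadjusted limit, beside 479 and 802 of all 12040 genes. That is a larger share than the 10.6% of all genes, in lists chosen with earlier results of these data known. By sign alone 49 were higher and 54 lower, while over all tested genes 5284 were higher and 6756 lower, the background for the sign counts that follow. The median over the lists was -0.0066 on the log2 scale, and -0.032 without MAZR-cKO 2, beside -0.0144 over all genes.

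Of 18 effector Treg targets, all tested, 13 were lower and 5 higher by sign, with a median of -0.11, and 0 were called. Without MAZR-cKO 2, 15 of 18 were lower. At the unadjusted limit 3 were lower and 0 higher, beside 352 and 280 of all 12040 genes. With the block 7 were lower and 0 higher at that limit, beside 802 and 479 of all genes, and 0 were called. The targets of smallest p without the block were Ebi3, a subunit of interleukin-35, Entpd1, an ectonucleotidase, and Tigit, an inhibitory receptor. Ebi3 stood at 23.3, 22.3 and 24.0 CPM in WT 1, 2 and 3 and at 20.9, 17.4 and 18.4 CPM in MAZR-cKO 1, 2 and 3, without overlap (log2 fold change -0.29, SE 0.09, limma adjusted p = 0.859). Entpd1 had 55.8 to 60.7 CPM in WT and 48.0 to 55.7 CPM under the MAZR-cKO label, and Tigit overlapped, at 110 to 137 and 96.4 to 114 CPM. Itgae, the CD103 integrin chain, had the smallest p of the 12 lists once the block was included. It was at 193, 171 and 271 CPM in WT 1, 2 and 3 and at 177, 131 and 198 CPM in MAZR-cKO 1, 2 and 3 (log2 fold change -0.32, limma adjusted p = 0.914, and 0.053 with the block). Il10, the cytokine that Blimp-1 and c-Maf control, was low at 3.75 to 4.39 CPM in WT and spread wider under the MAZR-cKO label, at 5.22, 6.24 and 3.19 CPM in libraries 1, 2 and 3.

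The partners of BATF and IRF4 were 12 genes, of which 9 were tested, 8 were higher by sign and 0 were called (median 0.03). Jun, an AP-1 subunit, was at 123, 122 and 112 CPM in WT 1, 2 and 3 and at 229, 210 and 90.5 CPM in MAZR-cKO 1, 2 and 3. Fos had 87.6, 90.3 and 67.2 CPM against 159, 195 and 51.5 CPM in the same order, and Fosb 11.6, 13.2 and 11.2 against 29.0, 56.2 and 6.94 CPM. MAZR-cKO 1 and 2 were thus above, and MAZR-cKO 3 below, the WT libraries for all 3 genes. The summed B cell and myeloid markers were placed likewise, while the natural killer, plasma and CD8 T cell sums were not. The 10 B cell markers summed to 105, 108 and 61.5 CPM in MAZR-cKO 1, 2 and 3 and 72.2 to 89.6 CPM in WT. The 12 myeloid markers summed to 182, 153 and 94.5 CPM in MAZR-cKO 1, 2 and 3 and to 120 to 152 CPM in WT. By sign 7 of 10 B cell and 4 of 9 tested myeloid markers were higher. Cd79b was lower without overlap, at 21.9 to 25.0 CPM in WT and 18.2 to 21.7 CPM under the MAZR-cKO label. The part of such cells in the Jun, Fos and Fosb values was not tested. In the Maf family 4 of 6 genes were tested, all higher by sign (median 0.17), among them Maff at 1.46 ± 0.48 and 2.04 ± 0.71 CPM, and 0 were called. Without MAZR-cKO 2 the medians of these lists were 0.07 and 0.02.

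**Figure D4:**
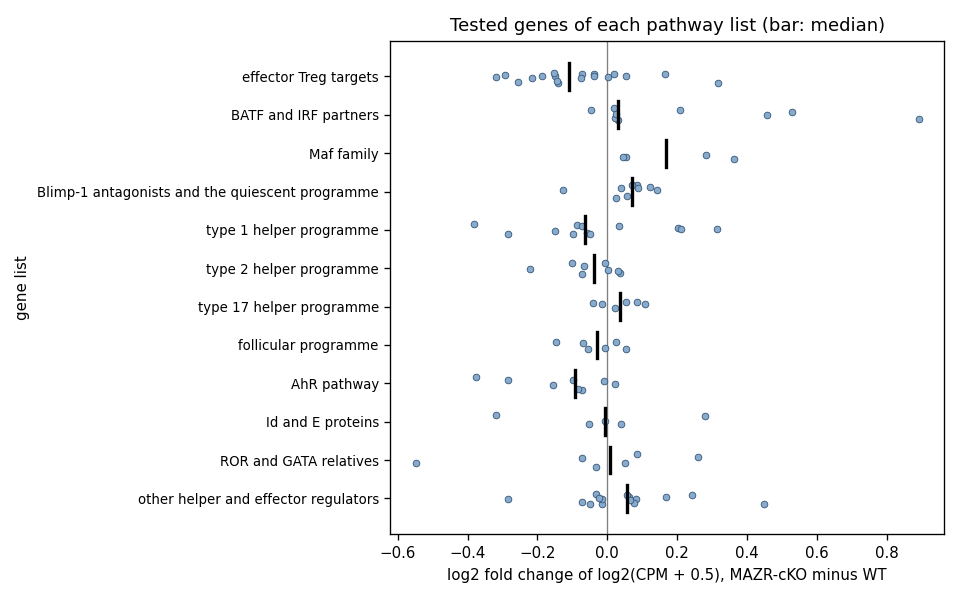
Log2 fold change of log2(CPM + 0.5), MAZR-cKO minus WT (horizontal axis), of each tested gene (points, shifted vertically at random) in the 12 lists (rows), with black bars for list medians. Medians lie between -0.11 for effector Treg targets and 0.17 for the Maf family, and the points farthest to the right are Fosb, Fos and Jun among the BATF and IRF partners.

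Antagonists of Blimp-1 and genes of the resting state, 9 in all, were higher by sign in 8 and lower in 1, with 0 called (median 0.07, and 0.04 without MAZR-cKO 2). Lef1, a factor of naive T cells, was the lower one, at 263 to 286 CPM in WT and 249 to 257 CPM under the MAZR-cKO label (log2 fold change -0.13, limma adjusted p = 0.914). Bcl6, which opposes Blimp-1, stood at 47.8 ± 6.6 and 52.0 ± 5.8 CPM, and Bach2, a repressor that holds Treg cells in the resting state, at 168 ± 2.1 and 175 ± 9.1 CPM.

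In the type 1 list 12 of 13 genes were tested, 8 were lower by sign and 0 were called (median -0.07, and -0.15 without MAZR-cKO 2). Il18r1, a receptor chain, had the smallest p, at 114, 155 and 161 CPM in WT 1, 2 and 3 and 107, 116 and 103 CPM in MAZR-cKO 1, 2 and 3 (log2 fold change -0.38, limma adjusted p = 0.902, 0.093 with the block). Cxcr3, the T-bet target, had 94.8, 145 and 89.4 CPM in WT 1, 2 and 3 and 97.3, 95.9 and 72.4 CPM in MAZR-cKO 1, 2 and 3, with the highest and lowest values in the same libraries as Tbx21. Eomes, the other T-box factor of lymphocytes, stood at 7.54 ± 1.1 and 9.54 ± 1.8 CPM, and Runx3 at 80.1 ± 6.0 and 72.2 ± 5.6 CPM.

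The type 2 list had 8 tested genes of 11, with 5 lower by sign (median -0.04), or 8 of 8 without MAZR-cKO 2, and the type 17 list 6 of 11, with 4 higher (median 0.04). The follicular list had 6 of 8, with 4 lower (median -0.03), and 0 were called in all 3. Zfpm1, which encodes FOG1, a cofactor of GATA proteins, was at 94.9 ± 11 and 81.0 ± 5.6 CPM. The lineage cytokines were near the floor, with Il4, Il5, Il13, Il17a and Il21 under 1 CPM in each library and Ifng at 2.15 to 4.27 CPM.

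Of 12 genes in the AhR pathway 8 were tested, 7 were lower by sign and 0 were called (median -0.09). Arnt, the obligate partner, stood at 112 ± 3.6 and 114 ± 4.0 CPM, and Tiparp, a target, at 20.4 to 21.8 CPM in WT and 18.6 to 24.5 CPM under the MAZR-cKO label. The classical target Cyp1a1 was at 0.152 to 0.220 CPM in WT and 0.0533 to 0.621 CPM under the MAZR-cKO label, and no read was found for Cyp1b1 or Cyp1a2. Nqo1, another target, had 1.54 to 1.73 and 0.932 to 1.33 CPM, without overlap (log2 fold change -0.38, limma adjusted p = 0.914).

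Among Id and E proteins 5 of 6 were tested, 3 lower and 2 higher by sign (median -0.01, and 0.02 without MAZR-cKO 2), and 0 were called. Id3, which acts like Id2, had 110, 103 and 102 CPM in WT 1, 2 and 3 and 90.4, 106 and 131 CPM in MAZR-cKO 1, 2 and 3, while the E protein genes Tcf3 and Tcf12 stood at 174 ± 6.5 and 167 ± 8.1, and at 160 ± 8.2 and 159 ± 5.9 CPM. Tcf4 was at 7.20 ± 0.36 and 8.86 ± 0.94 CPM without overlap (limma adjusted p = 0.914). Relatives of ROR and GATA factors were 7, of which 6 were tested, 3 in each direction by sign (median 0.01, and -0.19 without MAZR-cKO 2) and 0 called, with Gata1 at 43.5 ± 6.9 and 52.7 ± 12 CPM.

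In the list of other regulators 15 of 16 were tested, 8 higher and 7 lower by sign (median 0.06, and 0.02 without MAZR-cKO 2), and 0 were called. Bhlhe40, a helix-loop-helix factor of activated T cells, stood at 41.4, 42.4 and 37.2 CPM in WT 1, 2 and 3 and at 71.9, 53.8 and 43.5 CPM in MAZR-cKO 1, 2 and 3, without overlap. Log2 values differed by 0.45 (SE 0.15, limma adjusted p = 0.914, and 0.086 with the block). Myc, next by p, went the other way, at 147, 133 and 156 CPM in WT 1, 2 and 3 and 117, 94.3 and 153 CPM in MAZR-cKO 1, 2 and 3. Its groups overlap (log2 fold change -0.28, limma adjusted p = 0.914, and 0.188 with the block).

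Irf4 and Prdm1 are also strong genes of plasma cells. The 8 plasma cell markers summed to 118, 59.2 and 41.6 CPM in WT 1, 2 and 3 and to 95.6, 138 and 24.6 CPM in MAZR-cKO 1, 2 and 3. Igha, an immunoglobulin heavy chain gene, made up 104 of the 138 CPM in MAZR-cKO 2, and Tnfrsf17 was at 0 in WT 2 and MAZR-cKO 1. In MAZR-cKO 3, where the sum was lowest, Irf4 was at its highest and Prdm1 at its lowest level, and the part of plasma cells in either was not tested. CD8 T cell, gamma-delta and NKT cell, neutrophil, and red cell and platelet markers summed to at most 42.6, 22.4, 8.28 and 53.5 CPM in any library. Hbb-bs, a beta-globin gene of red cells, was the 1 marker called, lower and only with the block (limma adjusted p = 0.0205, and 0.914 without it), at 24.2, 14.1 and 7.05 CPM in WT 1, 2 and 3 and 9.57, 7.25 and 4.54 CPM in MAZR-cKO 1, 2 and 3.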

How the data were processed

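Gene-level CPM of 6 Treg libraries, 3 per label, were deposited by the authors in 1 table. Per the submitters' processing notes the build was mm10 and the tools were STAR 2.5.2b, Subread 1.5.1, FastQC, edgeR and R 3.4, with no roles or settings. The library kit was stranded, per the labels' protocols, and the strand mode of counting is not given in the sources used here. Each CPM column was a whole multiple of its smallest value (tolerance 0.01 reads, 100% of values above 0), so reads were recovered. Symbols came from GENCODE M21 by identifier (45143 of 46078).

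limma 3.58.1 (R 4.3.3, intensity trend) was run on log2(CPM + 0.5) over 12040 genes with 1 CPM in at least 3 libraries. Calls required a Benjamini-Hochberg adjusted p under 0.05. Fold changes on this scale understate those of low genes. edgeR 4.0.16 quasi-likelihood and DESeq2 1.42.0 ran on the recovered reads of the same genes. Scripts were tested on simulated data. No library was a copy of another (chi-square per degree of freedom 5.39 to 19.0). Same-numbered libraries correlated at 0.40, 0.38 and 0.38 after subtracting group means, each over 0.1, so the numbers were taken as pairs. The block stayed an alternative, so each SE, interval and p-value given without mention of it comes from a fit that ignores the pairs. With the block the limma adjusted p was 0.973 for Prdm1, 0.796 for Batf and 0.983 for Gata3.

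Members and lists were chosen with earlier results of these data known. Named genes are the members, the 2 nearest profiles of each, up to 3 genes of smallest p in a list and any list gene called. Other genes named in the lists were chosen after their values were seen. Intervals are 95% and two-sided.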

Additional observations from a re-analysis of the deposited data

How the results depend on the processing

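Over 21 alternatives, 167 of 189 member values kept their sign, and 20 alternatives called no member. The exception was Rora (0.33, limma adjusted p = 0.0018) with the replicate block and without replicate 3. That fit also called 145 of all genes higher and 134 lower, the most of any setting. Ahr, Maf and Tbx21 kept their sign in all 21. Of all genes, DESeq2 called 34 higher and limma 5. The replicate block gave 36 higher and 10 lower in limma, 33 and 4 in edgeR, and 22 and 1 after quantile normalization, and changed no member's call. The sign turned for Prdm1 with edgeR (0.0016), DESeq2 (0.00024), quantile normalization (0.015, with the block 0.015 too) and edgeR with the block (0.00029). With the Y-linked covariate it turned for Irf4 (0.18), Gata3 (-0.10) and Rora (-0.15). The cause was not tested.

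Leaving out 1 library gave 4 to 13 genes called higher, 0 to 1 lower and 0 members. Values then ran from -0.038 to 0.036 for Prdm1, -0.18 to 0.061 for Irf4, -0.038 to 0.10 for Batf, -0.078 to 0.059 for Gata3, -0.020 to 0.30 for Rora, -0.19 to 0.091 for Id2, -0.17 to -0.020 for Maf and -0.49 to -0.15 for Tbx21. Leaving out 1 pair, with the replicate block, gave 8, 30 and 145 genes called higher without replicate 1, 2 and 3, and 0, 15 and 134 lower, with 0 to 1 members. Values then ran from -0.059 to 0.045 for Prdm1, -0.14 to 0.00038 for Irf4, -0.019 to 0.11 for Batf, -0.093 to 0.075 for Gata3, 0.077 to 0.33 for Rora, -0.12 to 0.024 for Id2, -0.12 to -0.044 for Maf and -0.51 to -0.21 for Tbx21. Tbx21 had the fewest reads, down to 238, for which counting alone gives an SD of 0.09 on the log2 scale, beside 0.30 observed within groups.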
